A study of Mus musculus with 6 samples.

Results

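MicroRNA genes were followed in RNA sequencing of 4 lung tumors and 2 samples of normal lung from mice of the RPM model of small cell lung cancer. Every animal carried the genotype Rb1/Trp53/MycT58A, in which Cre recombinase inactivates both tumor suppressor genes and turns on a stabilized mutant Myc, and the labels list the virus Ad5CGRP-Cre for the normal samples as well as for the tumors. The virus was given into the airway at 8 weeks of age, per the labels' protocols, and its CGRP promoter drives Cre mainly in pulmonary neuroendocrine cells. Age at harvest is not given in the sources used here, and no drug arm is named for these samples. The sample titles number the normal lungs 1 and 2 and the tumors 3 to 6, and those numbers are used here. All 6 libraries belong to 1 batch. Each library names its own mouse.

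The members were the rows of the gene count table whose symbol begins with Mir or Mirlet7 and a number, does not end in hg, and has 10 or more counts summed over the 6 libraries. Of 22477 gene rows, 914 carried such a symbol and 614 were members. The members were chosen by that sum, so it is given as a description only: 16 rows stood just under the minimum with a sum of 9, 20 stood just at it with a sum of 10, and the median sum of the members was 34 counts. Only 142 members reached 100 counts and 34 reached 1000. Together the members held 0.0420% of all counts in normal 1 and 0.0615% in normal 2, against 0.129%, 0.139%, 0.0753% and 0.0803% in tumors 3 to 6.

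MicroRNAs are short RNAs that pair with messenger RNAs and lower their translation and stability. A microRNA gene is first read into a long primary transcript, often the intron or exon of a host gene. Drosha with Dgcr8 cuts out a hairpin, exportin 5 with Ran carries it to the cytoplasm, and Dicer cuts the hairpin to the mature strand that an Argonaute protein holds. The mature strand recognizes targets mainly through its seed, bases 2 to 8 from its 5′ end. These libraries were made from poly(A)-selected RNA, so mature microRNAs were not measured. A count in a microRNA row stands for reads over the hairpin, which come from a primary transcript, a host gene or another RNA that overlaps it. Of the 614 members, 528 were matched by symbol to a RefSeq hairpin, with lengths from 43 to 139 bases and a median of 79. The other 86 were not matched in the reference used here, which does not mean that they have no hairpin.

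The sequences below belong to the microRNA genes whose rows the results turn on. They come from RefSeq (GRCm38.p6), are written 5′ to 3′, and have the seed in capitals, so that members of a seed family can be seen side by side. The first group is the Mir17 to Mir92-1 cluster on chromosome 14 and its relatives in the Mcm7 gene on chromosome 5. Together they have 4 seeds, of which those of miR-17 and miR-92a occur in both places.
mmu-miR-17-5p: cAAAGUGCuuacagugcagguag
mmu-miR-20a-5p: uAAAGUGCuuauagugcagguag
mmu-miR-93-5p: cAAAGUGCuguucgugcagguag
mmu-miR-106b-5p: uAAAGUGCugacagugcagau
mmu-miR-18a-5p: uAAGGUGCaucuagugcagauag
mmu-miR-19a-3p: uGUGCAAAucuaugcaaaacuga
mmu-miR-19b-3p: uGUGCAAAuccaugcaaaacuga
mmu-miR-92a-3p: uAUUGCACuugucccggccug
mmu-miR-25-3p: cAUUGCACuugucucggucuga
The second group is miR-7, whose mature forms from Mir7-1 on chromosome 13 and Mir7b on chromosome 17 share a seed, and let-7, whose members share another.
mmu-miR-7a-5p: uGGAAGACuagugauuuuguugu
mmu-miR-7b-5p: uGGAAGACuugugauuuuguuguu
mmu-let-7a-5p: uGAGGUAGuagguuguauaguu
mmu-let-7b-5p: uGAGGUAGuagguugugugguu
mmu-let-7d-5p: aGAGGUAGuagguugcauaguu
mmu-let-7f-5p: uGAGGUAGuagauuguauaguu
The third group holds microRNAs whose rows had lower counts in tumors.
mmu-miR-126a-3p: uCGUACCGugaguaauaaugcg
mmu-miR-22-3p: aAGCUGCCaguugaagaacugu
mmu-miR-29c-3p: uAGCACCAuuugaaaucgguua
mmu-miR-21a-5p: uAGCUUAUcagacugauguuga

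Total counts ran from 54735438 to 99122494 per library and were highest in the 2 normal libraries. The labelled tissues carried their defining markers. The summed level of 11 neuroendocrine markers was 22.5 and 30.7 counts per 1000000 (CPM, on library sizes scaled by the TMM method) in normal lung and 1144 to 1809 CPM in tumors. The summed level of 8 alveolar and airway markers was 41243 to 45327 CPM in normal lung and 135 to 721 CPM in tumors. RNAs that carry no poly(A) tail (Rn45s, Rpph1 and Rmrp) made up 0.238% of normal 1, 0.550% of normal 2 and 5.46% to 13.9% of the tumor libraries.

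Of the 614 members, 265 had enough counts for the test of tumors against normal lung, and 349, with a median sum of 20 counts, did not. Among the 265, 99 rows (37.4%) were higher in tumors and 34 (12.8%) were lower, by edgeR's quasi-likelihood test at an adjusted p under 0.05 over all 18027 genes tested. Over all genes tested, 31.3% were higher and 32.6% were lower, 63.9% in either direction. The median log2 fold change was 1.29 over the 265 rows and 0.02 over all genes tested. A low row can pass the filter through the tumors alone or the normal samples alone, and such a row had to differ, so these counts describe the rows that passed and not all members. Every tumor lay above both normal libraries in 131 of the 265 rows and below both in 52, against 37.4% and 39.8% of all genes tested. Without normal 1 the counts were 40 higher and 17 lower, and the background fell to 18% and 22.9%. Without normal 2 they were 45 and 22, beside 20% and 23.3% of all genes tested. Only 49 calls, 33 higher and 16 lower, were made in each of the 6 fits that leave out 1 library.

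The Mir17 to Mir92-1 cluster was higher in tumors in all 5 of its rows that were tested. Mir20a and Mir19b-1, with fewer than 10 counts in each normal library, passed the filter through the tumors alone. The cluster lies in an exon of Mir17hg, its host transcript, and is known as a direct transcriptional target of Myc that promotes proliferation and survival. Mir19a stood at 0.142 and 0.227 CPM in normal 1 and 2 and at 3.43, 4.26, 3.59 and 3.78 CPM in tumors 3 to 6. The 4 tumors lay close together and far above both normal libraries, a 20.3-fold difference (log2 fold change 4.34 ± 0.44 SE, adjusted p = 0.000302). Mir18 stood at 0.102 and 0.227 CPM in normal lung and at 1.65, 1.98, 1.81 and 2.23 CPM in tumors (log2 fold change 3.54, adjusted p = 0.00145). Mir20a stood at 0.0711 and 0.0432 CPM against 0.939, 1.02, 1.04 and 1.15 CPM (4.14, adjusted p = 0.000695). These 2 rows, like Mir19a, showed no overlap between groups. Mir19b-1 had 1 and 1 counts in normal lung and 14, 19, 28 and 10 counts in tumors, a ratio of 25.9 after scaling with an exact 95% interval of 6.92 to 218 for counting error only (adjusted p = 0.00311). Mir92-1, at the 3′ end of the cluster, differed least, at 0.112 and 0.227 CPM against 0.507, 0.903, 0.586 and 1.02 CPM (2.14 ± 0.60 SE, adjusted p = 0.0178), and its call was lost without normal 1 or without normal 2. Mir17 itself had 0 counts in both normal libraries and 3, 2, 2 and 12 counts in tumors, too few to be tested. Against a floor of 3 counts over the 2 normal libraries it was at least 4.62-fold higher.

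The host transcript Mir17hg moved with its hairpins. It stood at 2.5 and 4.46 CPM in normal lung and at 31.7, 42.4, 32.1 and 57.0 CPM in tumors (log2 fold change 3.55 ± 0.41 SE, adjusted p = 0.0005). The rows share reads with it where they overlap its exon, so they are not separate evidence. Myc, the driver gene of the model, stood at 7.90 and 18.2 CPM in normal lung and 70.2, 169, 84.1 and 175 CPM in tumors (3.25, adjusted p = 0.00318).

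**Figure D1:**
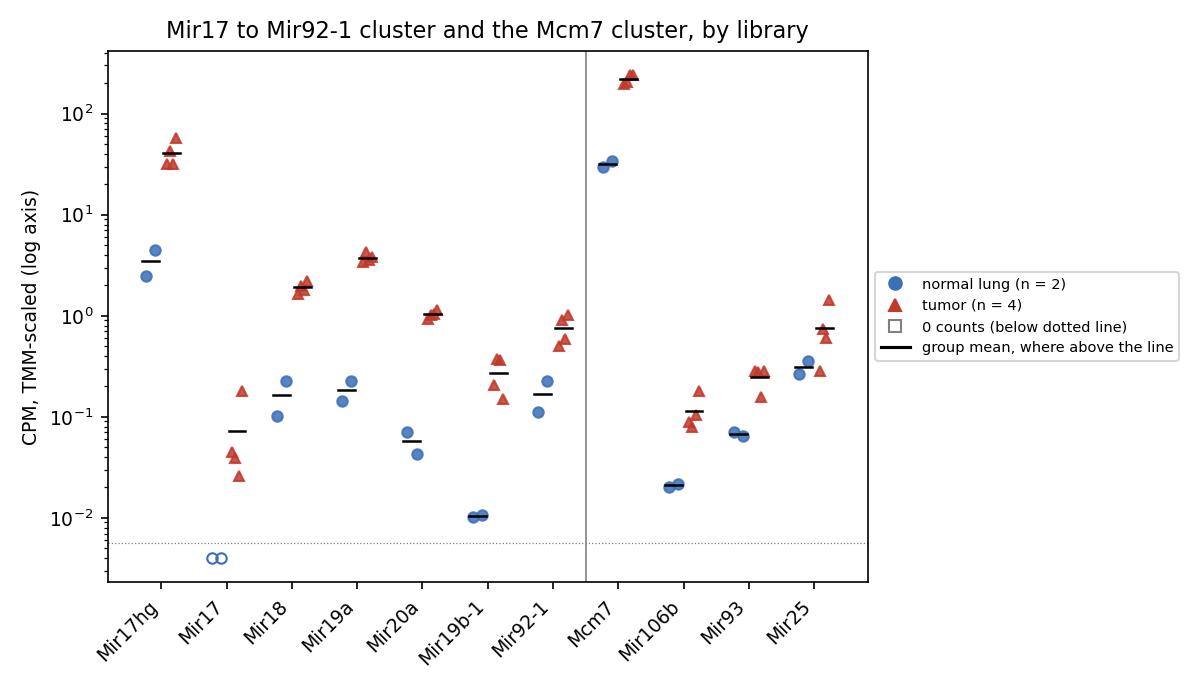
CPM on a log axis in each of 2 normal lung (circles) and 4 tumor libraries (triangles) for Mir17hg and the rows of its cluster (left of the vertical line) and for Mcm7 and the rows within it (right). Horizontal bars are group means, and open symbols under the dotted line have 0 counts. Tumors lie above both normal libraries in every row shown except Mir25, where tumor 3 at 0.283 CPM lies between the normal libraries.

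The paralogous cluster in Mcm7, a subunit of the replication helicase, was less uniform. Mcm7 rose from 29.6 and 33.8 CPM to 195, 208, 242 and 242 CPM (log2 fold change 2.81, adjusted p = 6.78e-05). Mir93, which shares the seed of miR-17, had 7 and 6 counts in normal lung and 19, 14, 12 and 19 counts in tumors (1.85 ± 0.57 SE, adjusted p = 0.0268), and its call was lost when either normal library was left out. Mir25, which shares the seed of miR-92a, was not called (1.29 ± 0.71 SE, adjusted p = 0.153), with 0.264 and 0.356 CPM in normal lung and 0.283, 0.746, 0.599 and 1.42 CPM in tumors. Mir106b was not tested, with 2 and 2 counts against 6, 4, 8 and 12. Over the list of this cluster and its paralogs, 9 members were present, 7 were tested, 6 were called higher and 0 lower, beside 31.3% and 32.6% of all genes tested. Mir20a, Mir19b-1 and Mir93, with fewer than 10 counts in each normal library, passed the filter through the tumors alone. In Mir18, Mir19a and Mir92-1 only normal 2 was high enough, so they too needed a tumor library to pass. The count therefore describes the rows tested, and nothing is read about the list. Mir15b, in an intron of the condensin gene Smc4, was also higher (2.43, adjusted p = 0.022), with 3 and 6 counts in normal lung and 15, 7, 24 and 25 in tumors. Its call too was lost when either normal library was left out, and it passed the filter through the tumors alone.

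Of the neuroendocrine and neuronal list only Mir7b and Mir7-1 were tested, and both were higher, beside 31.3% of all genes tested. Mir7b, at 0 counts in normal lung, passed the filter through the tumors alone, so its direction was fixed and nothing is read about the list. The microRNA miR-7 is abundant in neurons and in endocrine cells of the pancreas. Mir7b had 0 and 0 counts in normal lung and 25, 14, 21 and 30 counts in tumors, and was at least 21.9-fold higher against the floor of 3 counts over the normal group (adjusted p = 0.00124). It overlaps no other annotated gene. Mir7-1 lies in an intron of Hnrnpk, an abundant RNA-binding protein gene, and stood at 0.223 and 0.270 CPM in normal lung and at 0.805, 0.550, 1.11 and 1.29 CPM in tumors (log2 fold change 1.92 ± 0.54 SE, adjusted p = 0.0187, lost when either normal library was left out). Hnrnpk itself rose by a log2 fold change of 0.91 (adjusted p = 0.00275). Of 13 symbols of this list in the table, 9 were under 10 counts. Among them was Mir375, known as a microRNA of neuroendocrine cells, which had 0 counts in both normal libraries and 2, 2, 0 and 0 in tumors.

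Several rows had almost no counts in normal lung. The 6 rows described here were chosen after their values were seen, and rows this low in normal lung passed the filter through the tumors alone, so no theme is read from their hosts. Mir7080, in an exon of the copine gene Cpne7, had 0 counts in both normal libraries and 21, 76, 29 and 10 in tumors, at least 33.1-fold higher (adjusted p = 0.0105), while Cpne7 rose by a log2 fold change of 6.31. Mir8116, in an intron of the acetylcholinesterase gene Ache, had 0 and 0 counts against 19, 30, 13 and 15, at least 18.7-fold higher (adjusted p = 0.00375), and Ache rose by 2.09 on the log2 scale. Mir6402, in an intron of the neuronal RNA-binding protein gene Elavl2, had 0 and 4 counts against 23, 9, 31 and 23 (3.80, adjusted p = 0.0202, lost without normal 1), beside a log2 fold change of 7.46 for Elavl2. In these 3 rows no tumor overlapped a normal library. Mir6965 in Ccnf, which encodes cyclin F, had 0 and 0 counts against 13, 4, 11 and 10, at least 9.25-fold higher (adjusted p = 0.00421). Mir7089 in the phosphatase gene Cdc25a had 0 and 1 counts against 19, 10, 17 and 26 (adjusted p = 0.00339), and Mir7081 in Dnmt1, the maintenance DNA methyltransferase gene, had 0 and 1 counts against 8, 5, 14 and 15 (adjusted p = 0.00814, lost without normal 1). The hosts Ccnf, Cdc25a and Dnmt1 rose by 3.89, 2.35 and 1.83 on the log2 scale. The count ratios of Mir7089 and Mir7081 were 52.6 and 30.7, with exact 95% intervals for counting error of 9.14 to 2105 and 5.21 to 1239.7.

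The Mir344 family on chromosome 7 differed among tumors as well as from normal lung. Mir344g and Mir344-2 lie in the transcript A330076H08Rik, and Mir344, Mir344b and Mir344c in A230057D06Rik. Mir344g stood at 0.112 and 0.0539 CPM in normal lung and at 1.95, 0.510, 1.43 and 3.01 CPM in tumors (log2 fold change 4.35 ± 0.92 SE, adjusted p = 0.00597, lost without normal 2). Tumor 4 was lowest and tumor 6 highest, an order that its host shared, with 1.70 and 2.08 CPM in normal lung and 26.6, 6.24, 17.2 and 35.0 CPM in tumors. Mir344b had 0 and 0 counts against 13, 4, 21 and 35, at least 17.8-fold higher (adjusted p = 0.00775). It passed the filter through the tumors alone, as did every other row of the family called here. Mir344f, which overlaps no annotated gene, had 0 and 1 counts against 26, 1, 5 and 24, so tumor 4 matched normal 2 in raw counts. Its call (adjusted p = 0.0384) was lost when either normal library was left out. Mir344, Mir344-2 and Mir344c were also called higher, the first and last of them not when either normal library was left out and Mir344-2 not without normal 2, and Mir344i, with 7 and 7 counts against 3, 0, 1 and 11, was not tested.

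Among rows that passed the filter, those whose hairpin lies in a small structural RNA showed the highest share of calls of any overlap class. Such RNAs guide the chemical modification of ribosomal or spliceosomal RNA and include the small nucleolar RNAs (snoRNAs) and the small Cajal body RNAs (scaRNAs). Of 11 members of this class 10 were tested, and 9 were higher and 0 lower, beside 31.3% and 32.6% of all genes tested. Mir1843a, Mir3068 and Mir3084-1:2, with fewer than 10 counts in each normal library, passed the filter through the tumors alone. In Mir1291, Mir5121 and Mir677 only normal 2 was high enough, so they too needed a tumor library to pass. The share therefore describes the rows that passed and not the class as a whole. Mir1291, which lies within the snoRNA gene Snora34 on chromosome 15, stood at 0.102 and 0.173 CPM in normal lung and at 21.4, 20.8, 17.5 and 12.8 CPM in tumors, a 131-fold difference (log2 fold change 7.03 ± 0.47 SE, adjusted p = 6.93e-05). Snora34 stood at 0.102 and 0.119 CPM against 21.9, 21.2, 17.6 and 12.9 CPM, nearly the values of the row itself in each library. The 2 mature sequences shown here belong to rows of this class.
mmu-miR-1291: aUGGCUCUuacugaagacuagcaguu
mmu-miR-6516-5p: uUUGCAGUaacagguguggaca

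The match of row and structural RNA held in 3 further rows. Mir1843a and the scaRNA gene Scarna3b had log2 fold changes of 6.32 and 6.44, Mir1843b and Scarna3a of 3.78 and 3.86, and Mir3069 and Scarna13 of 2.67 and 2.82. Mir6516 overlaps both a scaRNA and an exon of Snhg20, and stood at 0.589 and 1.45 CPM in normal lung and at 65.4, 82.7, 51.7 and 64.6 CPM in tumors (6.02 ± 0.49 SE, adjusted p = 0.000138). Snhg20 rose by 1.63 on the log2 scale, so the row and its exonic host differed by a wide margin there. Mir3068, Mir3084-1:2, Mir5121 and Mir677 were higher too, by 46.7-fold, 21.1-fold, 15.3-fold and 8.95-fold, with adjusted p from 0.00102 to 0.00399. Mir1839 was not called (1.52, adjusted p = 0.0582), with 0.193 and 0.453 CPM in normal lung and 0.566, 0.923, 0.925 and 1.30 CPM in tumors. The share of tailless RNAs was higher in every tumor than in either normal library, as given above, and its part in these differences was not tested. With small RNA and histone rows removed before scaling, 102 member rows were called higher and 31 lower, beside 32.1% and 31.5% of all genes tested.

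**Figure D2:**
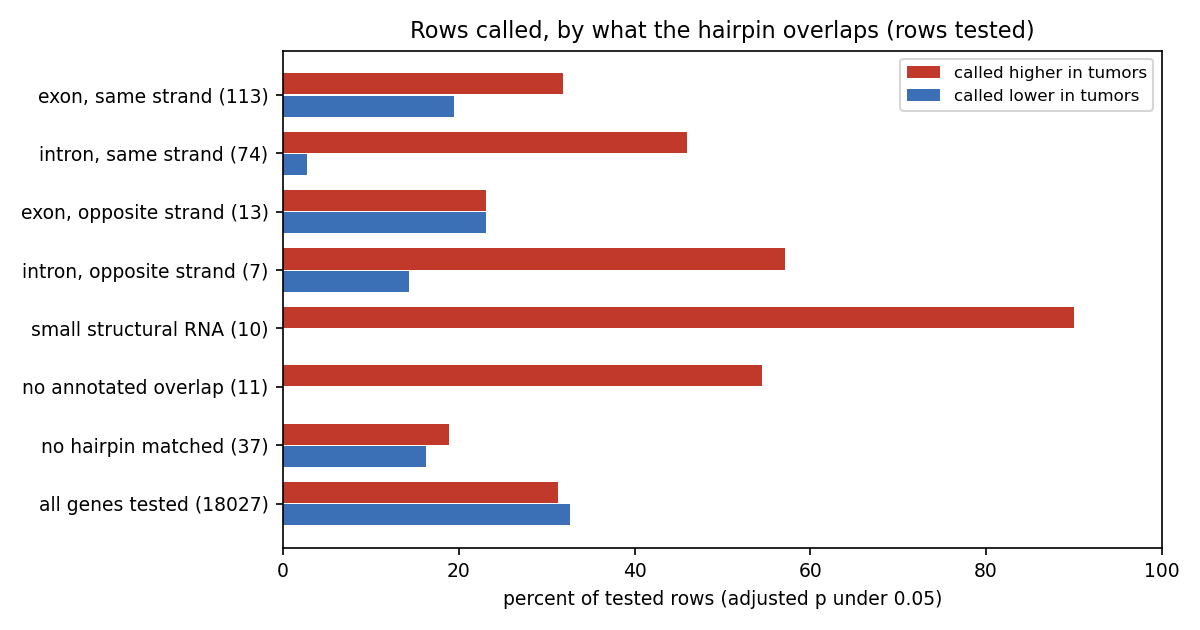
Percent of tested rows called higher (red) or lower (blue) in tumors, by what the hairpin overlaps in GENCODE vM21, with the number of rows tested in brackets. The bottom pair gives all genes tested, at 31.3% higher and 32.6% lower. In the small structural RNA class 9 of 10 rows were higher, and in the same-strand intron class 34 of 74 were higher and 2 lower. The shares describe rows that passed the filter, which a low row could do through the tumors alone.

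Most members sit inside another gene. Against GENCODE vM21 on GRCm38, 181 members overlapped an exon of another gene on the same strand, 247 an intron on the same strand, 20 an exon and 26 an intron on the opposite strand, 11 a small structural RNA and 43 no annotated gene. Of 113 tested rows in exons, 36 (31.9%) were higher, near the 31.3% of all genes tested. Lower calls numbered 22 (19.5%), beside 32.6% of all genes tested. Of 247 rows in introns, whose median sum was 25 counts, 74 were tested. Of those, 34 (45.9%) were higher and 2 (2.70%) lower, beside the same shares of all genes. A low row that passed the filter through the tumors alone had to be higher, so these counts describe the rows that passed and not intron rows as a whole. With at least 1 CPM required in a whole group, 1 intron row was called higher instead of 33 among those set beside a host. Host and row can share reads, so they were set side by side with no test between them.

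Rows in exons changed about as much as their hosts. Over 101 rows in an exon of a tested host gene, the median log2 fold change was 0.37 for the rows and 0.11 for the hosts, and Pearson's r across the rows was 0.93, as a description of rows that share reads and libraries with their hosts. Of 33 such rows called higher, 26 had a host called higher, 7 a host not called and 0 a host called lower. Of 21 called lower, 20 had a host called lower. For 75 tested rows in an intron of a tested host, passed by the same filter, the median log2 fold change was 1.86 for the rows and 0.46 for the hosts, 66 of the 75 rows had the larger value, and r was 0.70. A row that passed through the tumors alone had a high log2 fold change by selection and its host did not, so nothing is read from this difference. Of 33 intron rows called higher, 23 had a host called higher, 9 a host not called and 1 a host called lower.

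In some intron rows that passed the filter, row and host differed. Mir1898, Mir6915, Mir1964 and Mir687 passed it through the tumors alone. Their direction was therefore fixed, and nothing is read from how they differ from their hosts. The share of tailless RNAs, 0.238% and 0.550% in normal lung and 5.46% to 13.9% in tumors, moved with the groups, and its part in these rows was not tested. Mir1898, in an intron of Zfr, stood at 0.102 and 0.129 CPM in normal lung and at 1.45, 0.825, 0.716 and 1.62 CPM in tumors (log2 fold change 3.30 ± 0.61 SE, adjusted p = 0.00343). Zfr, a zinc finger RNA-binding protein gene, stood at 155 and 170 CPM against 182, 163, 219 and 184 CPM and was not called (0.20, adjusted p = 0.319). Mir6915, in an intron of Ankrd52, had 1 and 2 counts against 14, 13, 19 and 17 (adjusted p = 0.00263), while Ankrd52 was not called (0.46, adjusted p = 0.146). Mir1964 went against its host: the row had 2 and 2 counts against 6, 14, 8 and 17 (3.00, adjusted p = 0.0185, lost when either normal library was left out), and the zinc finger gene Zfp84 fell by 0.73 on the log2 scale (adjusted p = 0.0078). Mir687 lies in an intron of Rb1, the gene that Cre deletes in part in this model, and had 3 and 1 counts against 7, 12, 15 and 2 with no call (adjusted p = 0.0601). Rb1 was not called either (-0.31, adjusted p = 0.345).

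**Figure D3:**
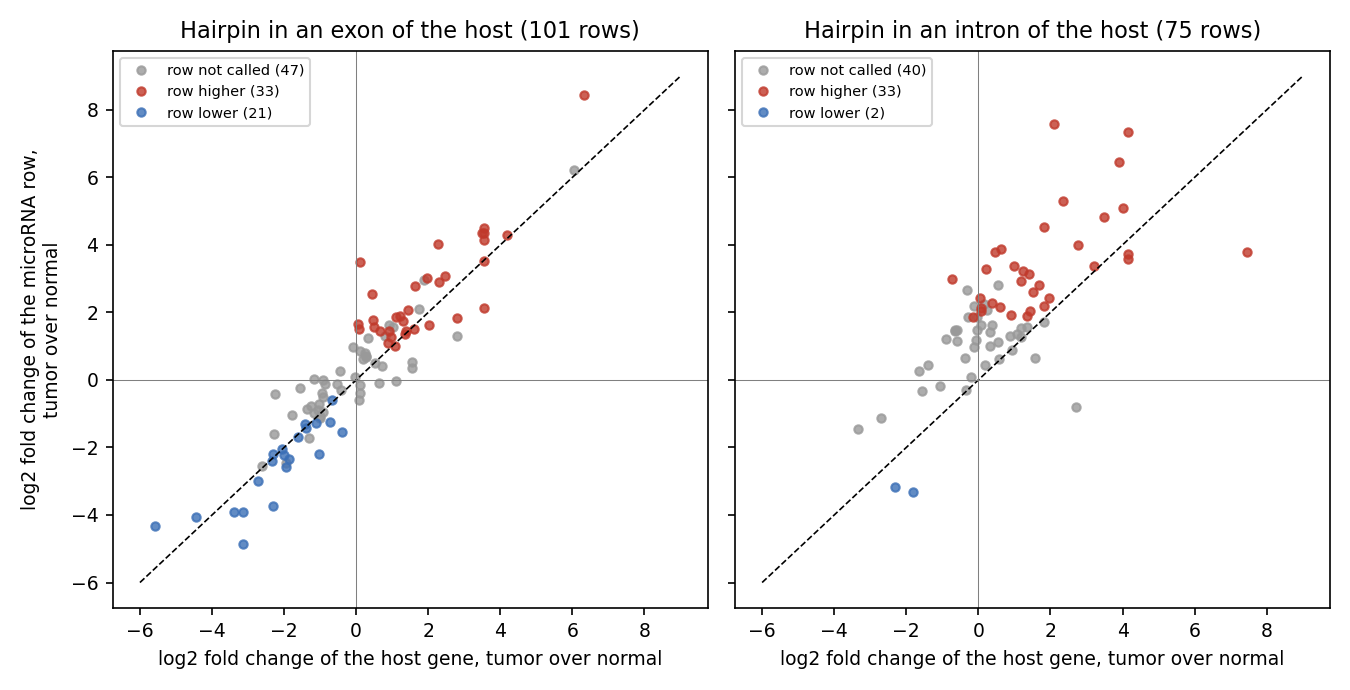
Log2 fold change (tumor over normal) of each tested microRNA row against that of the gene that holds it, for 101 rows in exons (left) and 75 rows in introns (right), outside the small structural RNA class. The dashed line marks equal change. Exon rows follow the line (r 0.93), and 66 of 75 intron rows lie above it.

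Mir126a and Mir126b, on the 2 strands of 1 hairpin site in an endothelial gene, fell. Both rows passed the filter through the normal libraries alone, so their direction was fixed and only their size is described. Mir126a, which lies within Egfl7 on chromosome 2 and is a known microRNA of blood vessel cells, had 34 and 48 counts in normal lung and 2, 2, 2 and 1 in tumors. In CPM this was 0.345 and 0.518 against 0.0298, 0.0393, 0.0260 and 0.0150, a 15.1-fold fall (log2 fold change -3.91 ± 0.56 SE, adjusted p = 0.00118). Egfl7, a gene of endothelial cells, stood at 273 and 299 CPM against 29.0, 35.0, 25.9 and 18.6 CPM (-3.40, adjusted p = 9.02e-05). The 10 endothelial markers, Egfl7 among them, were all lower in tumors, and their summed level was 4282 and 4697 CPM in normal lung and 80.6 to 205 CPM in tumors. In bulk samples fewer cells of a type and less RNA per cell cannot be told apart. Mir126b, on the opposite strand of the same hairpin, had 20 and 29 counts against 1, 1, 1 and 1 (-3.93, adjusted p = 0.00134). Without strand information in the sources used here, reads of Mir126a and Mir126b cannot be told apart.

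Other rows that fell are described singly, most of them chosen after their values were seen. Mir7025, in an exon of the fibroblast receptor gene Pdgfra, stood at 4.43 and 4.08 CPM in normal lung and at 0.134, 0.157, 0.560 and 0.150 CPM in tumors (log2 fold change -4.07 ± 0.67 SE, adjusted p = 0.00205), and tumor 5 lay above the other three. Pdgfra fell by 4.46 on the log2 scale. Copies of Mir7676 lie in the cytokine receptor genes Csf2rb and Csf2rb2, whose near-identical sequence makes the split of reads between them uncertain. Mir7676-2:2 had 109 and 90 counts against 4, 7, 4 and 2 (-3.90, adjusted p = 0.00176), beside -3.13 for Csf2rb. Mir142b, opposite the blood cell microRNA gene Mir142, had 37 and 71 counts against 7, 5, 3 and 0 (-3.23, adjusted p = 0.0235), and Mir142 itself, with 7 and 15 counts against 2, 2, 2 and 0, was not tested. Mir7007, in an intron of the mast cell protease gene Cpa3, had 34 and 41 counts against 1, 3, 6 and 0 (-3.32, adjusted p = 0.0193), and Mir8119, in an exon of the T cell kinase gene Lck, had 18 and 33 counts against 5, 0, 5 and 2 (-2.57, adjusted p = 0.0386). The calls of Mir142b, Mir7007 and Mir8119 were lost when either normal library was left out, those of Mir142b and Mir8119 also without tumor 5, and that of Mir8119 without tumor 6 and with DESeq2. No tumor overlapped a normal library in any of these rows. Mir7676-2:2, Mir142b, Mir7007 and Mir8119 passed the filter through the normal libraries alone. Their direction was therefore fixed, and nothing is read from the lack of overlap in them. Summed levels of 8 T, B and NK cell markers were 36.8 and 65.8 CPM in normal lung and 3.05 to 16.3 CPM in tumors, those of 8 myeloid markers 4780 to 5183 and 255 to 1111 CPM, and those of 8 fibroblast markers 1747 to 1792 and 307 to 1035 CPM. Of these markers 6 of 8 were lower in the T, B and NK cell list and 5 of 8 in the myeloid list. In the fibroblast list 3 of 8 were lower, 4 were not called and Twist1 was higher. The part of cell makeup in these rows was not tested.

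The endothelial and mesenchymal list held 19 members, of which 11 were tested, 0 were higher and 4 were lower, near the 32.6% of all genes tested that were lower. The 4 were Mir126a, Mir22, Mir29c and Mir21a. Mir126a and Mir21a passed the filter through the normal libraries alone, so their direction was fixed. In Mir29c only tumor 5 was high enough among the tumors, so it needed a normal library to pass. The count therefore describes the rows tested, and nothing is read about the list. Mir22 is expressed widely and lies in an exon of its host Mir22hg, and stood at 1.46 and 1.27 CPM in normal lung and at 0.224, 0.471, 0.247 and 0.150 CPM in tumors (log2 fold change -2.33 ± 0.53 SE, adjusted p = 0.00802, lost without normal 1). Mir22hg fell by 1.87 on the log2 scale. Mir29c, of a family known to repress collagen genes, stood at 0.559 and 0.410 CPM against 0.134, 0.0196, 0.195 and 0.0598 CPM (-2.20, adjusted p = 0.0406), and Mir29b-2 in the same host transcript was not called (-0.71, adjusted p = 0.468). Mir21a, which is high in many human cancers and lies at the end of the Vmp1 gene, stood at 0.315 and 0.313 CPM against 0.149, 0.0589, 0.0781 and 0.135 CPM (-1.55, adjusted p = 0.0428). Vmp1 was not called (-0.40, adjusted p = 0.133). The calls of Mir29c and Mir21a were lost when either normal library or tumor 6 was left out, under upper quartile scaling and with DESeq2. Mir29c was also lost without tumor 3, and Mir21a without tumor 4 or without tumor 5. Mir143 and Mir145a, known from smooth muscle, were too low to be tested, with 6 and 12 counts against 1, 0, 0 and 0 for Mir143 and 2 and 14 against 1, 1, 0 and 1 for Mir145a. Mir143hg, their known host transcript, was lower (-2.11, adjusted p = 0.00262), as were 7 of 8 smooth muscle markers.

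**Figure D4:**
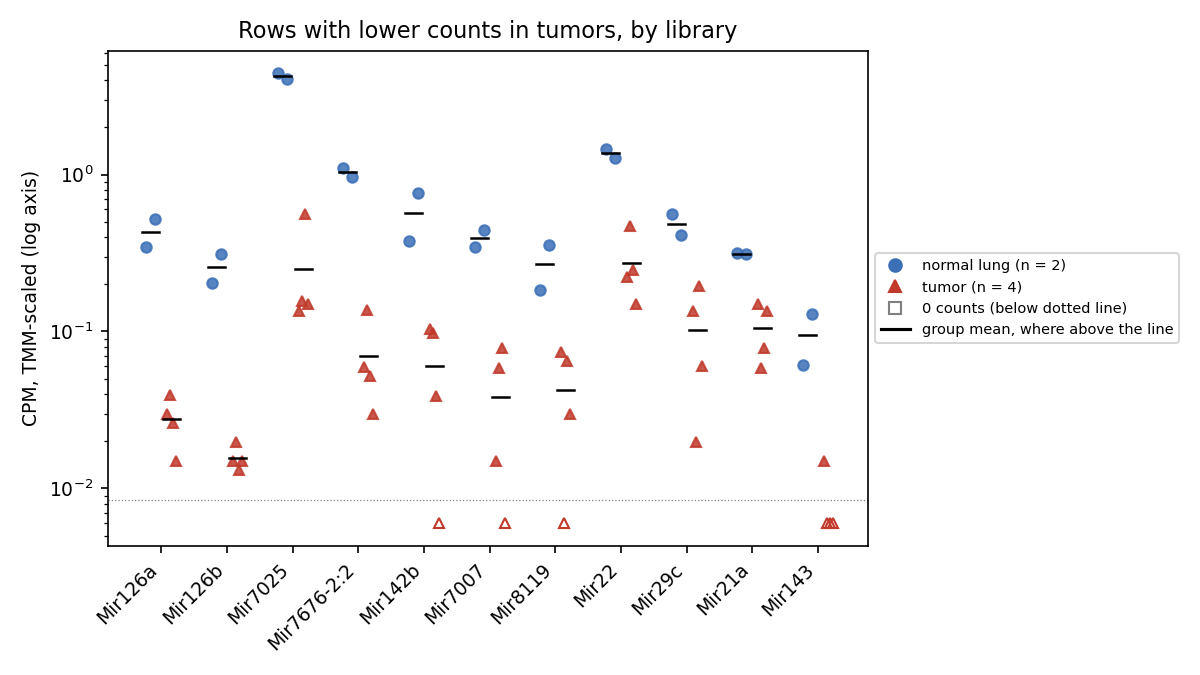
CPM on a log axis in each of 2 normal lung (circles) and 4 tumor libraries (triangles) for 11 rows with lower counts in tumors, with group means as bars and libraries of 0 counts as open symbols under the dotted line. No tumor reaches a normal library in these rows, and Mir143, with 18 counts in normal lung and 1 in tumors, was not tested. Mir126a, Mir126b, Mir7676-2:2, Mir142b, Mir7007, Mir8119 and Mir21a passed the filter through the normal libraries alone, so their direction was fixed.

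Blood cell and muscle lists gave few or weak calls, beside 31.3% higher and 32.6% lower of all genes tested. Mir181b-2, Mir1a-2, Mir1b and Mir133a-1 had fewer than 10 counts in each normal library. They passed the filter through the tumors alone, so their direction was fixed and nothing is read about the lists. Of 11 members of the blood cell list 3 were tested and only Mir181b-2 was called, as higher, with 5 and 5 counts against 9, 11, 15 and 23 (log2 fold change 2.05, adjusted p = 0.0283, lost when either normal library was left out). Mir223, the classical microRNA of granulocytes, had 19 and 32 counts against 8, 7, 2 and 5 and was not called (-1.60, adjusted p = 0.085). The 3 tested muscle rows, Mir1a-2, Mir1b and Mir133a-1, were each called higher with at most 27 counts in a library (2.65, 2.31 and 2.16), and each call was lost when either normal library was left out. Striated muscle markers summed to 287 and 597 CPM in normal lung and to 5.83 to 471 CPM in tumors, with tumor 6 highest, and 5 of 7 were lower. Acta1 and Ckm were not called. In tumor 6 they stood at 321 and 146 CPM, against at most 1.97 and 9.47 CPM in any other library. Of the list of microRNAs linked to p53, the product of Trp53, only Mir15a was tested and it was not called (1.46, adjusted p = 0.0941). Mir34a, a textbook p53 target, was under the minimum with 3 and 3 counts in normal lung and 0 in every tumor. None of 2 members of the epithelial list, Mir200a and Mir200b, was tested.

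The let-7 rows did not move together. The let-7 family restrains growth and Myc and is switched on as cells mature, and Lin28a and Lin28b block its processing from the hairpin. Of 10 members 5 were tested, and only Mirlet7b was called, beside 31.3% higher and 32.6% lower of all genes tested. Mirlet7b passed the filter through the tumors alone. Mirlet7b had 6 and 8 counts in normal lung and 15, 12, 20 and 15 in tumors (log2 fold change 1.66 ± 0.52 SE, adjusted p = 0.0287), a call lost when either normal library or tumor 5 was left out and with DESeq2. Mirlet7f-1 stood at 0.640 and 0.777 CPM against 1.07, 0.432, 0.977 and 1.29 CPM (0.41 ± 0.53 SE, adjusted p = 0.522), so tumor 4 lay below both normal libraries and the other three above. Mirlet7d (-0.50, adjusted p = 0.41), Mirlet7a-1 (-0.19, adjusted p = 0.801) and Mirlet7e (-0.30, adjusted p = 0.741) were not called either.

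Genes that make or use microRNAs differed in both directions. Of 32 listed genes 27 were in the table and tested, and 11 were higher, 4 lower and 12 not called, against 31.3% higher and 32.6% lower of all genes. Without normal 1 only 6 of the 27 were called higher, beside 18% of all genes, and without normal 2 only 7, beside 20%. Lin28a stood at 0.0406 and 0.302 CPM in normal lung and at 7.48, 61.2, 18.3 and 26.7 CPM in tumors (log2 fold change 7.37 ± 1.35 SE, adjusted p = 0.00331), and tumor 3 was the lowest of the tumors. Lin28b stood at 0 and 0.356 CPM against 2.67, 2.85, 3.40 and 6.15 CPM (4.40, adjusted p = 0.0341), a call lost without tumor 3 or without tumor 5. Zcchc11, a uridylyltransferase that tags let-7 precursors, stood at 55.3 and 52.0 CPM against 146, 141, 165 and 145 CPM (1.48 ± 0.15 SE, adjusted p = 0.000278). Its close relative Zcchc6 went the other way, at 151 and 143 CPM against 45.4, 54.6, 54.4 and 50.8 CPM (-1.52 ± 0.14 SE, adjusted p = 0.000194). Neither gene showed overlap between the groups.

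Some genes of the nuclear steps were called higher and others were not called. Drosha (0.70), its partner Dgcr8 (1.08) and the cap-linked factor Srrt (1.10) rose on the log2 scale, with adjusted p from 0.00136 to 0.00612, while the helicase genes Ddx5 (0.09, adjusted p = 0.636) and Ddx17 (0.26, adjusted p = 0.328) were not called. Of the export factors, Xpo5 rose by 1.37 and Ran by 3.15, from 98.1 and 113 CPM to 1097, 1057, 750.2 and 846 CPM (adjusted p = 0.000131). Dicer1 was not called (0.26, adjusted p = 0.304), while its partners Tarbp2 (1.82-fold, adjusted p = 0.016) and Prkra (2.32-fold, adjusted p = 0.0285) were higher. The Argonautes split. Ago2, the member that can cleave targets, stood at 84.7 and 82.2 CPM against 161, 153, 233 and 285 CPM (1.32, adjusted p = 0.00805). Ago4 stood at 41.7 and 39.1 CPM against 4.29, 1.85, 6.20 and 2.69 CPM, a 10.7-fold fall (-3.42 ± 0.46 SE, adjusted p = 0.000881), Ago1 fell by 1.05 (adjusted p = 0.00419), and Ago3 was not called (-0.26, adjusted p = 0.253). Gigyf2 fell by 0.35 (adjusted p = 0.0445), a call lost under every other scaling tried. It was also lost with DESeq2, with small RNA and histone rows removed and with at least 1 CPM required in a whole group. Leaving out either normal library, tumor 4, tumor 5 or tumor 6 lost it as well. The calls of Drosha, Tarbp2, Prkra and Ago2 were lost when either normal library was left out, that of Srrt without normal 1, and that of Prkra also without tumor 5.

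**Figure D5:**
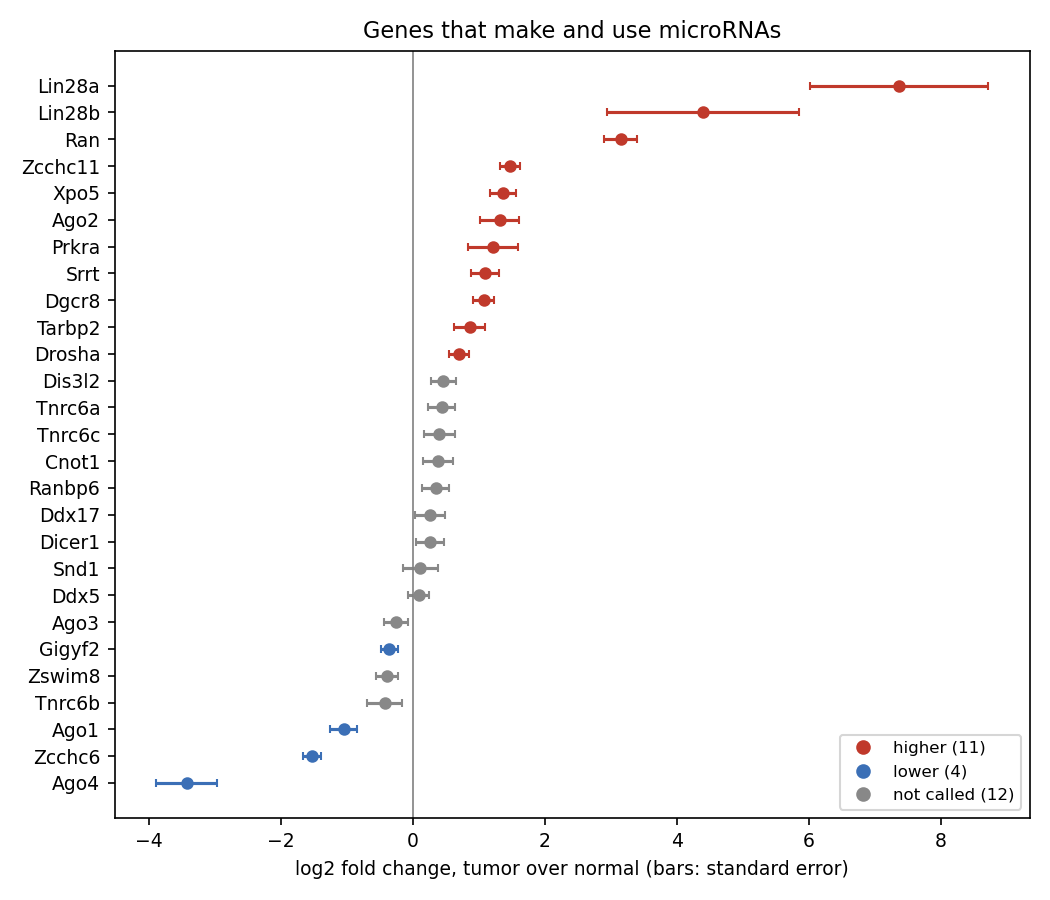
Log2 fold change, tumor over normal, with its standard error for 27 genes that make or use microRNAs, ordered by size. Red marks 11 genes called higher, blue 4 called lower and grey 12 not called, with Lin28a at 7.37 and Ago4 at -3.42 at the ends.

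Among the rows of larger counts, Mir1949 and Mir1983 differed widely and had no host to compare. Mir1949 was not matched to a RefSeq hairpin and stood at 0.0203 and 0.464 CPM in normal lung and at 168, 239, 124 and 139 CPM in tumors (log2 fold change 9.44 ± 1.13 SE, adjusted p = 0.000566). Mir1983, on chromosome 13 outside any annotated gene, had 0 and 1 counts in normal lung and 369, 103, 116 and 141 in tumors (8.65, adjusted p = 0.000982), with tumor 3 well above the others. Mir1983 passed the filter through the tumors alone. In Mir1949 only normal 2 was high enough, so it too needed a tumor library to pass. Mir5136, opposite an intron of Lbhd1, stood at 0.223 and 0.518 CPM against 37.4, 44.5, 25.7 and 41.6 CPM (6.65, adjusted p = 0.000119), and Lbhd1 rose by 1.00. Mir3091, in an intron of the ribosomal protein gene Rps21, stood at 0.284 and 0.194 CPM against 4.69, 4.69, 2.70 and 3.43 CPM (4.01, adjusted p = 0.000607). In all 4 rows every tumor lay above both normal libraries, which the rule that named them required.

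Of the 10 rows of steepest fall with a mean log2 CPM of at least 0, 5 were not matched to a RefSeq hairpin. Mir1668 stood at 15.2 and 14.9 CPM in normal lung and at 0.626, 0.412, 0.547 and 0.613 CPM in tumors, with little spread in either group (-4.77 ± 0.30 SE, adjusted p = 5.54e-05). Mir6381 (-4.70), Mir5107 (-4.41), Mir1903 (-3.85) and Mir8108 (-3.61) fell as well, with adjusted p from 0.000239 to 0.00243. The others followed the gene they overlap. Mir8114 and the glutamine synthetase gene Glul had log2 fold changes of -2.41 and -2.33, and Mir5114 and the lipid desaturase gene Scd2 of -2.03 and -2.05. Mir546 and the phosphatase gene Ctdsp2 had -2.20 and -2.30, and Mir130c and Kdelc2, which lie on opposite strands, had -2.66 and -2.55.

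Some rows of high summed count varied widely among libraries and were not called. Mir6236 stood at 94.0 and 195 CPM in normal lung and at 495, 520, 105 and 129 CPM in tumors and was not called (1.11 ± 0.78 SE, adjusted p = 0.247). Mir682 stood at 0.528 CPM in normal 1 and 53.3 CPM in normal 2, and at 170, 216, 1.52 and 2.20 CPM in tumors 3 to 6 (adjusted p = 0.511), so normal 2 stood with tumors 3 and 4 and apart from normal 1 and tumors 5 and 6. Mir692-1, which was not tested, had 200 counts in normal 1 and at most 4 in any other library. Mir692-2, which overlaps an exon of the ferritin pseudogene Ftl2-ps on the same strand, was not called (-0.80, adjusted p = 0.10). Mir8094, in an exon of the RNA helicase gene Ddx39b, and Mir1892, in an exon of Sptssa, were higher at log2 fold changes of 1.35 and 1.46, beside 1.36 and 1.38 for their hosts. The 5 rows of highest count held 25.1% and 43.9% of member counts in normal 1 and 2 and 73.9%, 75.8%, 52.6% and 51.8% in tumors 3 to 6.

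Rows in 2 imprinted genes were far higher in tumor 6 than in the other tumors, which themselves lay above both normal libraries. Mir675, within an exon of the noncoding gene H19, stood at 0.0203 and 0.0539 CPM in normal lung, at 0.209, 0.196 and 0.260 CPM in tumors 3 to 5 and at 10.8 CPM in tumor 6. It was not called (6.22 ± 2.56 SE, adjusted p = 0.0704), nor was H19, at 0.528 and 0.831 CPM against 2.56, 2.08, 3.57 and 170 CPM. Mir335, in an intron of Mest, had 1 and 1 counts in normal lung and 7, 5, 12 and 87 in tumors (5.11 ± 1.70 SE, adjusted p = 0.035, lost when either normal library was left out). Mir675 and Mir335 passed the filter through the tumors alone, so their direction was fixed. Without tumor 5 or without tumor 6 Mir335 was too low to be tested. Mest stood at 13.6 and 11.5 CPM against 72.2, 36.9, 96.1 and 607 CPM, with tumor 6 highest again (4.02, adjusted p = 0.0346). The striated muscle markers Acta1 and Ckm were also far higher in tumor 6 than elsewhere, and a link to these rows was not tested.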

How the data were processed

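Flash-frozen tumors and normal lung gave total RNA, which was poly(A)-selected and made into NEBNext Ultra II libraries, per the labels' protocols. Tools listed in the submitters' processing notes, with no role given, were STAR 2.5.4a, Trim Galore, Trimmomatic 0.36, R 3.5.1 and DESeq2 1.22.2, with mm9 as the build. The authors deposited whole-number counts per gene symbol from TPMCalculator, per the labels. No source used here gives its strand setting or its annotation, and reads of overlapping genes may be counted for both.

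Samples were grouped by the labelled tissue, 4 tumors against 2 normal. All genes were fitted together in edgeR 4.0.16 (R 4.3.3) with TMM scaling and tissue as the only term. Its filter used a minimum count of 10 and a minimum total of 15, and its quasi-likelihood test gave p-values adjusted by Benjamini-Hochberg over 18027 genes, with a threshold of 0.05. No p was adjusted over the members alone. The test was checked on simulated counts with 200 changed genes. Hairpins and mature sequences came from RefSeq (GRCm38.p6), hosts from GENCODE vM21 on GRCm38. No coordinates are printed, since that build is not mm9. A host is the gene whose exon or else intron holds the hairpin. Exact intervals and floors of 3 counts cover counting error only.

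The members, gene lists and tests were chosen with earlier results of these data known. The naming rule took members on a role list, the 10 called rows that rose most and the 10 that fell most where no tumor overlapped a normal library and log2 CPM averaged 0 or more, the 10 of highest summed count, up to 6 processing genes per direction by smallest p, and the hosts. The other microRNA rows named, among them Mir7080, Mir8116, Mir335, Mir675, Mir126b, Mir1898 and most of the Mir344 family, and the other processing genes were chosen after their values were seen. Alternatives were RLE, upper quartile and total-count scaling, small RNA and histone rows removed, no filter, at least 1 CPM in a whole group, DESeq2 1.42.0, voom of limma 3.58.1, counts halved and each library left out.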

Additional observations from a re-analysis of the deposited data

Results flagged for a closer look

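In 92 named rows and genes with at least 50 summed counts, the highest or lowest of the 4 tumors was examined for a wide gap to its nearest neighbor, as a share of the tumors' range. Values past Dixon's 95% critical value for 4 samples are given, and chance gives about 1 in 20. Tumor 6 was highest for Mir675 (10.8 CPM) and Mir335 (1.30 CPM). Tumor 5 was highest for Mir7025 (0.560 CPM) and for Mir7676-2:1 (0.0260 CPM, the other tumors having 0 counts), and lowest for Mir93 (0.156 CPM). Tumor 3 was highest for Mir1983 (5.50 CPM) and Mir3069 (107 CPM) and lowest for Mir6915 (0.209 CPM). Tumor 4 was highest for Mir7080 (1.49 CPM) and lowest for Mir23b (0.314 CPM).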

How the results depend on the processing

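With 99 rows called higher and 34 lower as reported, the other scalings, no filter, DESeq2, voom and halved counts gave 70 to 125 higher and 29 to 39 lower. Requiring at least 1 CPM in a whole group left 23 higher and 20 lower, with fewer rows tested, 19 exon rows called like their host instead of 46, and 1 intron row called higher instead of 33. Halved counts left 15 intron rows called higher. Leaving out 1 library gave 40 to 101 rows higher, 17 to 38 lower, 20 to 46 exon rows called like their host, 9 to 37 intron rows higher, and 6 to 13 processing genes higher against 11. With a minimum of 50 or 100 summed counts the members number 237 or 142. Leaving out 1 library turned the direction of 3 uncalled rows: the log2 fold change ran from -0.60 to 0.34 for Mirlet7a-1 (turned without normal 2), from -0.58 to 0.032 for Mirlet7e (without normal 2 or tumor 5) and from -0.034 to 1.12 for Mir3074-1 (without normal 1). The cause was not tested. The lone normal library left in those fits is assumed to vary like the tumors. Depth limits most members, since 349 of 614 could not be tested. No paired analysis was possible because the groups share no replicate number.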

Other observations

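Among the members were 6 pairs of hairpins on opposite strands of 1 site. For Mir24-1 and Mir3074-1 on chromosome 13, counts were 21 and 42 in normal lung and 30, 17, 38 and 44 in tumors for Mir24-1, and 44 and 93 against 71, 29, 75 and 90 for Mir3074-1. Neither was called. For Mir374b and Mir374c, counts were 4 and 4 against 15, 3, 18 and 18 for Mir374b, and 1 and 1 against 2, 0, 3 and 6 for Mir374c. The strand setting of the counts is not given in the sources used here.

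Some rows without a host had counts in tumors and 0 in normal lung. Such rows passed the filter through the tumors alone, so their direction was fixed and only their size is described. Mir384 had 7, 2, 24 and 16 counts in tumors, at least 11.9-fold higher than the floor of 3 counts over the normal group, and Mir670 had 23, 1, 4 and 37, at least 15.8-fold higher. Both calls (edgeR, adjusted p = 0.0133 and 0.036) were lost without either normal library.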
